A study of Mus musculus with 8 samples.

Results

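The release of fatty acids from stored fat was examined through 10 genes, *Pnpla2*, *Pnpla3*, *Lipe*, *Mgll*, *Abhd5*, *G0s2*, *Lpl*, *Gpihbp1*, *Lmf1* and *Lipa*, which encode triglyceride lipases of the lipid droplet, the lysosome and the cell surface together with their cofactors. They were taken by gene symbol from RNA-seq values that list 41325 symbols per library. The cells were C3H10T1/2, a mouse mesenchymal stem cell line that turns into fat cells when confluent cultures receive insulin, dexamethasone and isobutylmethylxanthine. The 4 lines were shControl, to which the labels give the genotype WT, and shKDM4D, shNFIB and shMLL1, which carry stable short hairpin RNAs (shRNAs) against a histone demethylase, a transcription factor and a histone methyltransferase. The knockdown cells came from puromycin-resistant clones, and which clone was sequenced is not given in the sources used here. Each line was sequenced at day 0, before the hormones, and at day 5 of differentiation, which gives 8 libraries and 1 library for each condition.

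Stored triglyceride is broken down in steps. Adipose triglyceride lipase (ATGL, *Pnpla2*) removes the first fatty acid at the droplet surface, hormone-sensitive lipase (HSL, *Lipe*) acts mainly on the resulting diacylglycerol, and monoglyceride lipase (*Mgll*) frees the last fatty acid from glycerol. ATGL is switched on by its coactivator CGI-58 (*Abhd5*) and held back by the G0/G1 switch protein (*G0s2*). Lipoprotein lipase (*Lpl*) works outside the cell on circulating triglyceride and supplies fatty acids for storage, whereas lysosomal acid lipase (*Lipa*) digests lipid inside lysosomes.

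Values are RPKM, the reads of a gene divided by its exon length and by the mapped reads of the library, so levels of different genes are compared per length. The libraries held between 15842221 and 38202580 mapped reads, as recovered from the RPKM values. Of the 10 genes, 9 had an RPKM over 1 in at least 1 library, as did 11513 genes in all, and *Pnpla3* and *Lpl* passed this filter through the shControl library at day 5 alone. A change was called when the RPKM values differed by more than 2-fold. With no replicate libraries there is no p-value for a difference between conditions, and the exact 95% intervals given with log2 ratios cover counting error only. The targeted genes *Nfib* and *Kmt2a* (which encodes MLL1) were lower in their own knockdown lines, with log2 ratios to shControl cells of -2.10 and -1.37 at day 0 and of -2.33 and -1.70 at day 5. *Kdm4d* had 13 reads in shControl cells and 4 in shKDM4D cells at day 5 (-1.86, interval -3.94 to -0.17), and 2 reads and 1 read at day 0. The summed RPKM of 6 adipocyte markers went from 0.688 to 775 in shControl cells, but reached only 24.7 in shKDM4D, 2.84 in shMLL1 and 0.785 in shNFIB cells at day 5. The 6 mesenchymal markers summed to between 1919 and 2839 in every library, of which the highest marker of the library gave 984 to 1512. Of these 6, *Thy1* was over 2-fold below shControl cells in all knockdown lines on both days, and *Pdgfra* was so in shMLL1 cells at day 5 (both named after their values were seen). The 5 endothelial and 6 macrophage markers summed to at most 1.72 and 2.24. The macrophage marker *Adgre1* was at 0 in 7 of the 8 libraries and the endothelial marker *Emcn* in 5. Of these lists only endothelial *Tek* and macrophage *Cd68* passed an RPKM of 1 (named after their values were seen). They were highest in shControl cells at day 0, at 1.58 and 1.64. At day 0 *Cd68* was over 2-fold lower in each knockdown line, and *Tek* in shNFIB and shMLL1 cells. Both rose past 2-fold by day 5 in shMLL1 cells.

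**Figure D1:**
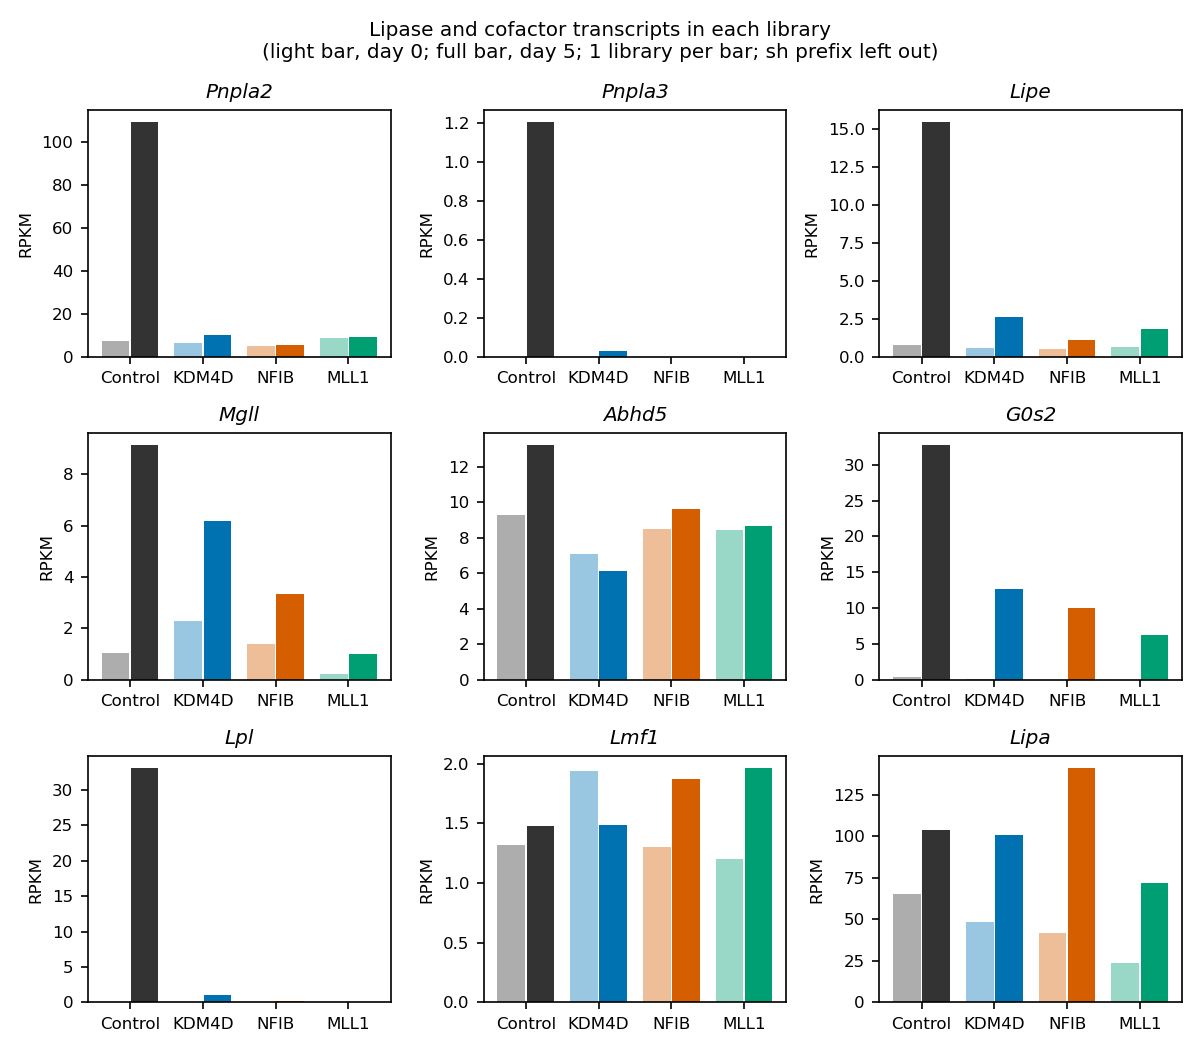
RPKM of 9 of the 10 genes in each of the 8 libraries (linear axes from 0, 1 scale per gene, light bars for day 0 and full bars for day 5). *Gpihbp1* had no reads and is left out. *Pnpla2*, *Pnpla3*, *Lipe* and *Lpl* stand out in shControl cells at day 5, *G0s2* is up at day 5 in every line, and *Abhd5*, *Lmf1* and *Lipa* differ less between the lines at day 5.

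In shControl cells the genes of droplet lipolysis were raised at day 5, with *Pnpla2*, *Lipe*, *Mgll* and *G0s2* each past 2-fold, whereas *Abhd5* was not. The 3 knockdown lines separated these genes. *Pnpla2* stayed within 2-fold of its day 0 level, *Lipe* and *Mgll* rose by less than in shControl cells, and *G0s2* rose steeply in all lines. At day 5 *G0s2* and *Pnpla2* were both lower in knockdown than in shControl cells. *Pnpla2* was so by more, which left a higher ratio of *G0s2* to *Pnpla2* in knockdown cells. This was not particular to *G0s2*. The ratios of *Abhd5*, *Lipe*, *Mgll* and *Lipa* to *Pnpla2* were also lowest in shControl cells among the day 5 libraries, whereas that of *Pnpla3* was highest there. From day 0 to day 5, 6 of the 9 genes that passed the filter were higher in shControl cells, against 13.0% of all genes tested. The share of all genes was 12.8% in shKDM4D cells (6 of 9), 12.6% in shNFIB cells (5 of 9) and 20.4% in shMLL1 cells (5 of 9). None of the 9 was lower by more than 2-fold in any line, against 8.56%, 8.44%, 4.96% and 6.89% of all genes in shControl, shKDM4D, shNFIB and shMLL1 cells. The median change of the 9 genes on the log2(RPKM + 0.1) scale was 3.70 for shControl, 1.06 for shKDM4D, 0.68 for shNFIB and 0.67 for shMLL1 cells, beside medians over all genes of 0.03, 0.03, 0.09 and 0.17. The 6 genes counted in shKDM4D cells include *Pnpla3*, which had a single read at day 5. As *Pnpla3* and *Lpl* passed the filter only through the library in which they were high, their call in shControl cells was largely fixed by it. Without them 4 of 7 genes were higher in each line. The medians above include both genes and were not redone without them.

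Promoter windows of RefSeq (build GRCm38.p6) were found for 8 of the 10 genes. *Lpl* and *Gpihbp1* had no window and were not searched. The windows of *Pnpla2*, *Lipe*, *Abhd5* and *Lipa* are printed because their transcripts moved so differently. Each runs from 160 to 21 bases before a RefSeq start site, 5′ to 3′ on the strand of the gene, with matches to the motifs searched in capitals. The *Lipe* window lies before the more downstream of its 2 start sites.
*Pnpla2*, chr7:141455028-141455167, plus strand: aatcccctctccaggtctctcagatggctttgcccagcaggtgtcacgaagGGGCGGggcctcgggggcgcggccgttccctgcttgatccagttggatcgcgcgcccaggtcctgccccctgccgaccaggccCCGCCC
*Lipe*, chr7:25390133-25390272, minus strand: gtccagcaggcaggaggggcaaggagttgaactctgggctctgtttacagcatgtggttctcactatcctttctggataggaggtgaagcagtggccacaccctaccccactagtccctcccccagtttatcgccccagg
*Abhd5*, chr9:122351456-122351595, plus strand: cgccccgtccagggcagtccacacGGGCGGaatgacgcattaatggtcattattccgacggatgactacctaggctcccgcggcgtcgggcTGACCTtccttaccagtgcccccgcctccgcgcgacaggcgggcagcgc
*Lipa*, chr19:34527495-34527634, minus strand: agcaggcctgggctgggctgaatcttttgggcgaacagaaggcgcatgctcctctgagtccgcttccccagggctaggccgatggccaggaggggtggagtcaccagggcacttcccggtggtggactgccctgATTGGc

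The 250 bases before each start site were searched on both strands. The GC box (GGGCGG) was found in 7 of the 10 windows of the 8 genes searched, 1 window for each of them but *Lipa*. It was found in 32.7% of all 32851 windows. In *Pnpla2* it lies 109 and 26 bases before the start site, and in *Lipe* only the upstream start site has it, with 6 matches of which 2 overlap. The core site of nuclear receptors (AGGTCA, 14.0% of windows) was found only for *Abhd5*, 69 bases before its start. The direct repeat of this core site bound by PPAR receptors (AGGTCANAGGTCA, 0.0335%), the NFI palindrome (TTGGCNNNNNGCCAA, 0.0365%), the single NFI site (TTGGCA, 12.3%) and the C/EBP site (TTGCNNAA, 9.56%) had no match in the windows of these genes. The CCAAT box (CCAAT, 33.8%) was found for *Lipa* and *Pnpla3*, the E-box (CACGTG, 6.02%) for *Lipe* and *Mgll*, and the cAMP response element (TGACGTCA, 1.55%) for *Pnpla3*. The letters of the TATA box (TATAAA, 12.4%) were found for *Lipa*, but 239 bases before its start site and outside the printed window. These matches describe letters in short windows, and no binding was measured in them here.

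*Pnpla2* is a protein coding gene on chromosome 7 of GRCm38 (141455198 to 141460743). Its RPKM in shControl cells was 7.50 at day 0 and 109 at day 5. The day 0 and day 5 values were 6.22 and 10.2 for shKDM4D, 4.74 and 5.20 for shNFIB, and 8.66 and 8.91 for shMLL1 cells. The shControl library at day 5 thus stood apart, and the other 7 libraries lay within the range from 4.74 to 10.2. The log2 change from day 0 to day 5 was 3.86 in shControl cells (interval 3.74 to 3.99) and 0.72 in shKDM4D cells (0.53 to 0.90). In the other knockdown lines it was 0.14 (shNFIB, -0.12 to 0.39) and 0.04 (shMLL1, -0.09 to 0.17), both of which include 0. The sign of these last 2 values is not fixed, since division by *Gapdh* gave -0.43 in shNFIB cells and the 4 other scalings gave values from -0.17 to -0.05 in shMLL1 cells. Division by *Gapdh* brought the change in shKDM4D cells past 2-fold (1.19). At day 5 the log2 ratios to shControl cells were -3.42 (-3.53 to -3.30) for shKDM4D, -4.39 (-4.58 to -4.21) for shNFIB and -3.61 (-3.71 to -3.52) for shMLL1 cells, or 10.7-fold lower in the first and 12.2-fold lower in the last. Among the knockdown lines, shKDM4D cells were above shMLL1 cells by a log2 ratio of 0.20 (0.05 to 0.34), and shMLL1 cells were above shNFIB cells, whose log2 ratio to them was -0.78 (-0.98 to -0.57). At day 0 the ratios to shControl cells were -0.27, -0.66 and 0.21 in shKDM4D, shNFIB and shMLL1 cells, and -0.67, -0.02 and -0.003 after division by *Gapdh*. The adipocyte markers fell in the same comparisons, by medians of -5.02, -8.76 and -7.37 at day 5 on the log2(RPKM + 0.1) scale in shKDM4D, shNFIB and shMLL1 cells, and their part in the *Pnpla2* values was not tested. In these bulk samples, fewer fat cells and less RNA per fat cell cannot be told apart.

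*Abhd5* (chromosome 9, from 122351608 to 122381524, protein coding), the coactivator of ATGL, moved little. Its RPKM was 9.27 and 13.2 at day 0 and day 5 in shControl cells, 7.08 and 6.13 in shKDM4D, 8.47 and 9.61 in shNFIB, and 8.46 and 8.64 in shMLL1 cells. All 8 libraries lay between 6.13 and 13.2. The log2 change was 0.51 (0.41 to 0.62) in shControl cells and -0.21 (-0.35 to -0.07) in shKDM4D cells, where dividing by *Gapdh* turned it to 0.26. In shNFIB cells it was 0.18 (-0.38 after division by *Gapdh*), and in shMLL1 cells 0.03, which was below 0 under each of the 4 other scalings. At day 5 the shKDM4D cells were 2.16-fold below shControl cells, just past the limit and not past it with 1 added to every RPKM, whereas shNFIB and shMLL1 cells were 1.38-fold and 1.53-fold lower.

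*G0s2* (chromosome 1, from 193272161 to 193273217, protein coding) encodes the inhibitor of ATGL. In shControl cells it had 9 reads at day 0 and 552 at day 5, an RPKM of 0.388 and 32.8. In shKDM4D cells it had 2 and 239 reads (0.118 and 12.7). No read was seen at day 0 in shNFIB and shMLL1 cells, and 137 and 207 reads at day 5 (9.93 and 6.23). Every day 5 library was therefore above every day 0 library. The log2 change was 6.40 in shControl cells (5.47 to 7.54) and 6.76 in shKDM4D cells (4.89 to 9.81). Against the floor of 3 reads per library, the transcript was at least 53.8-fold higher at day 5 in shNFIB and at least 69.1-fold higher in shMLL1 cells. At day 5 it was still lower than in shControl cells, by 2.58-fold in shKDM4D, 3.30-fold in shNFIB and 5.26-fold in shMLL1 cells. Both other knockdown lines were above shMLL1 cells, shNFIB by a log2 ratio of 0.67 (0.35 to 0.99) and shKDM4D by 1.03 (0.75 to 1.30).

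Within a library, the RPKM of *G0s2* was 0.0518 of that of *Pnpla2* at day 0 and 0.300 at day 5 in shControl cells (0.275 to 0.328). In shKDM4D cells the ratio went from 0.0189 to 1.24 (1.07 to 1.44). In shNFIB cells it reached 1.91 (1.54 to 2.36), and in shMLL1 cells 0.700 (0.600 to 0.813). Both had 0 reads of *G0s2* at day 0, where the exact intervals of the ratio end at 0.0482 and 0.0128. All 3 knockdown lines thus lay above shControl cells at day 5, and the intervals do not overlap. The ratio of *Abhd5* to *Pnpla2* fell in shControl cells from 1.24 to 0.121. It went from 1.14 to 0.600 in shKDM4D cells, while in shNFIB (1.79 and 1.85) and shMLL1 cells (0.977 and 0.969) the 2 days had overlapping intervals. For both ratios the shControl value at day 5 was the lowest of the day 5 libraries.

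**Figure D2:**
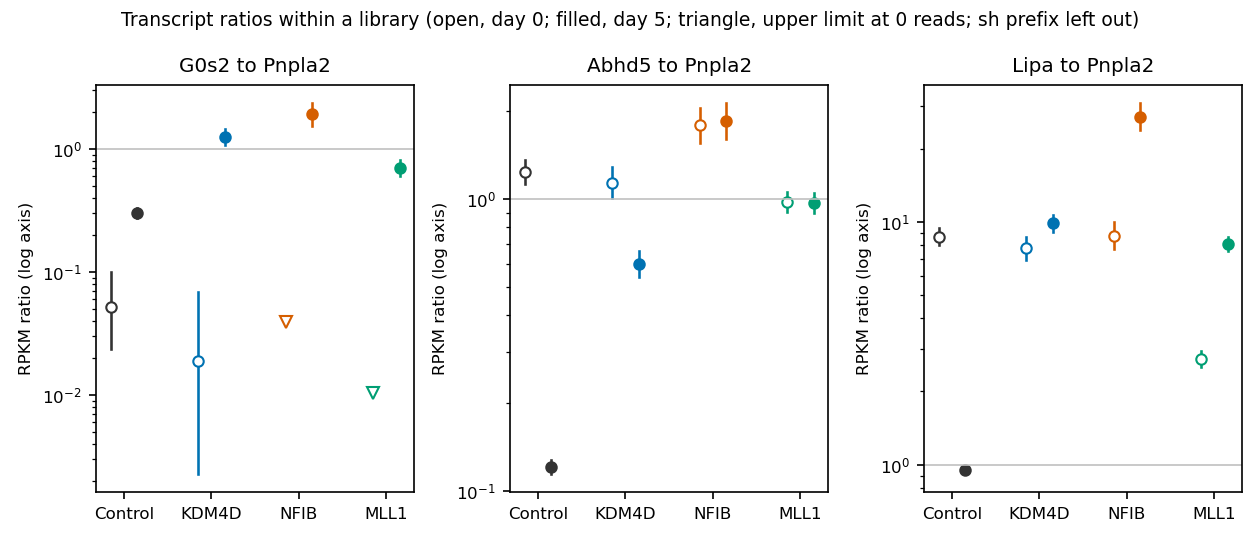
Ratios of RPKM within each library on log axes, with open symbols for day 0, filled symbols for day 5, vertical lines for exact 95% counting intervals and triangles for the upper limit at 0 reads. At day 5 shControl cells have the lowest ratio in each panel, at 0.300 for *G0s2*, 0.121 for *Abhd5* and 0.948 for *Lipa*.

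*Pnpla3* (chromosome 15, from 84167837 to 84187236, protein coding), a relative of *Pnpla2* that encodes adiponutrin, was hardly transcribed. It had 36 reads in shControl cells at day 5 (RPKM 1.20), 1 read in shKDM4D cells at day 5 (0.0299) and none in the other 6 libraries. With 3 reads in place of 0, it was 16.5-fold higher at day 5 than at day 0 in shControl cells, and the exact interval starts at 12.8-fold. At day 5 it was, on the same basis, 9.84-fold lower in shNFIB and 23.7-fold lower in shMLL1 than in shControl cells. The exact log2 intervals end at -2.93 and -4.19. In shKDM4D cells the log2 ratio to shControl cells was -5.33 (-10.67 to -2.76).

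*Lipe* and *Mgll*, which act after ATGL, both rose from day 0 to day 5 in all 4 lines. *Lipe* (chromosome 7, from 25379527 to 25398710, protein coding) went from an RPKM of 0.733 to 15.4 in shControl, from 0.591 to 2.59 in shKDM4D, from 0.501 to 1.10 in shNFIB and from 0.640 to 1.81 in shMLL1 cells. The log2 changes were 4.39 (4.12 to 4.68), 2.13 (1.75 to 2.53), 1.14 (0.66 to 1.64) and 1.50 (1.22 to 1.79). In shNFIB cells *Lipe* was not past 2-fold after quantile normalization (0.57) or division by *Gapdh* (0.58), nor in shMLL1 cells after quantile normalization (0.74). All day 0 values were below all day 5 values. At day 5 *Lipe* was 5.95-fold lower than in shControl cells in shKDM4D, 14.0-fold lower in shNFIB and 8.51-fold lower in shMLL1 cells, the same order as for *Pnpla2*. Its change differed from that of shControl cells by -2.26 (-2.73 to -1.80), -3.25 (-3.80 to -2.71) and -2.89 (-3.28 to -2.51) in shKDM4D, shNFIB and shMLL1 cells, where the change of *Pnpla2* differed by -3.15, -3.73 and -3.82. The ratio of *Lipe* to *Pnpla2* at day 5 was 0.141 for shControl, 0.254 for shKDM4D, 0.212 for shNFIB and 0.204 for shMLL1 cells.

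*Mgll* (chromosome 6, from 88724412 to 88828360, protein coding) differed between lines already at day 0. Its RPKM then was 1.03 for shControl, 2.28 for shKDM4D, 1.38 for shNFIB and 0.232 for shMLL1 cells. At day 5 it was 9.14, 6.17, 3.32 and 0.976 in the same order. The value in shMLL1 cells at day 5 was thus below that of shControl cells at day 0. Relative to shControl cells, *Mgll* in shMLL1 cells had log2 ratios of -2.15 (-2.67 to -1.65) before and -3.23 (-3.46 to -3.00) after differentiation. In shKDM4D cells the ratio was 1.15 (0.84 to 1.46) at day 0, a call lost after division by *Gapdh*, and -0.57 (-0.71 to -0.42) at day 5, which is not past 2-fold. In shNFIB cells it was 0.43 (0.07 to 0.78), or 1.07 after division by *Gapdh*, and -1.46 (-1.66 to -1.26). The change from day 0 to day 5 was 3.15 for shControl, 1.44 for shKDM4D, 1.26 for shNFIB and 2.07 for shMLL1 cells. It was below that of shControl cells by log2 differences of -1.72 (-2.05 to -1.38), -1.89 (-2.29 to -1.49) and -1.08 (-1.61 to -0.54) for shKDM4D, shNFIB and shMLL1 cells. In shNFIB cells *Mgll* was not past 2-fold after quantile normalization (0.98) or division by *Gapdh* (0.70). Quantile normalization took the change in shMLL1 cells to 1.08, below the 1.34 it gave for shKDM4D cells, so the order of these lines depends on the scaling.

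**Figure D3:**
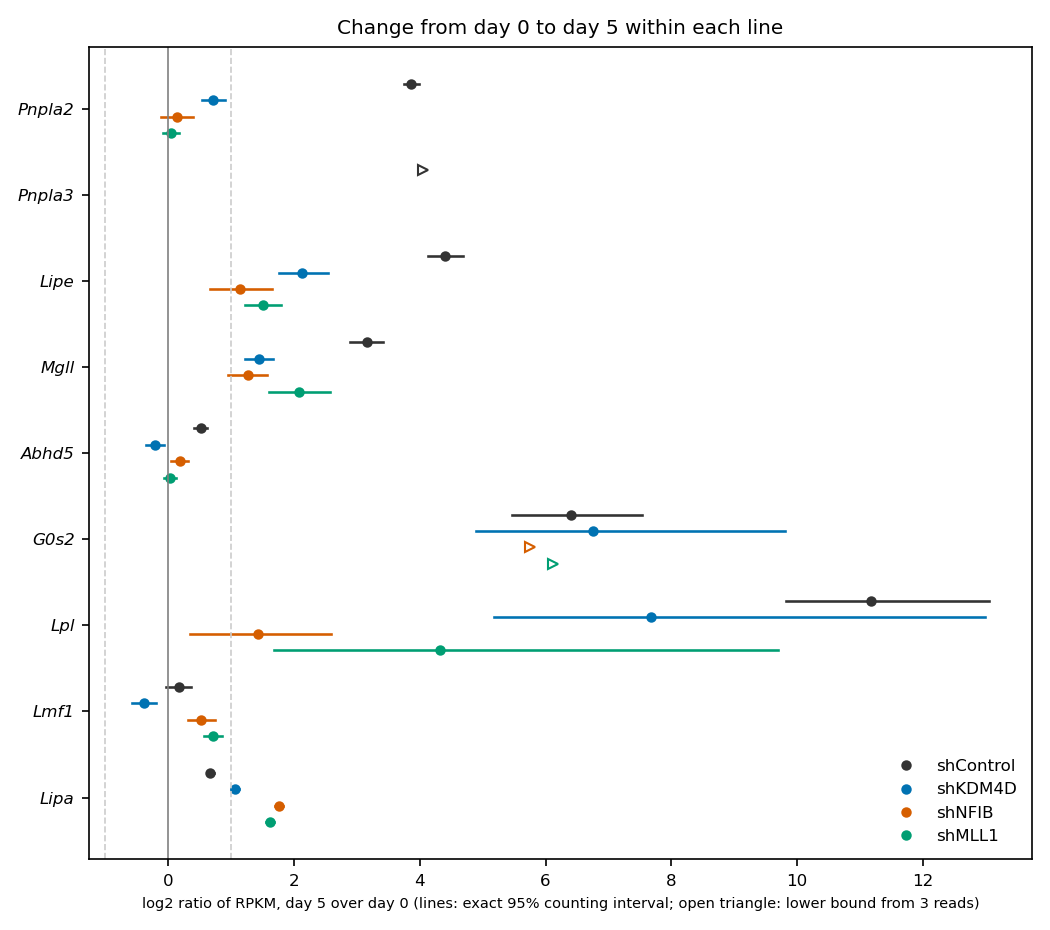
Log2 ratio of day 5 to day 0 RPKM within each line (points), with exact 95% counting intervals (lines), lower bounds from 3 reads (open triangles) and the 2-fold limits (dashed). *Pnpla2* is at 3.86 in shControl cells and near 0 in shNFIB and shMLL1 cells, whereas *G0s2* is far to the right in all 4 lines and *Lipa* is further right in the knockdown lines than in shControl cells.

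Lipoprotein lipase and its partners did not move together. *Lpl* (chromosome 8, from 68880491 to 68907448, protein coding) had 4 reads at day 0 and 6713 at day 5 in shControl cells, an RPKM of 0.0143 and 33.1. It had 1 and 226 reads in shKDM4D, 11 and 25 in shNFIB, and 1 and 20 in shMLL1 cells. In every line the day 5 library held more reads than the day 0 library, and at day 5 shControl cells were far above the rest. The log2 change was 11.18 in shControl cells (9.82 to 13.05) and 7.68 in shKDM4D cells (5.18 to 12.98). In shMLL1 cells it was 4.32 (1.68 to 9.70), and in shNFIB cells 1.42 (0.35 to 2.59), where *Lpl* was not past 2-fold after quantile normalization (0.49) or division by *Gapdh* (0.86). With 0.1 added to every RPKM the change was not past 2-fold in shMLL1 (0.55) or shNFIB cells (0.68), and with 1 added it was 0.99 in shKDM4D cells. The day 5 RPKM was 0.998 for shKDM4D, 0.151 for shNFIB and 0.0501 for shMLL1 cells. These lines differed from each other beyond counting error, with log2 ratios of 2.73 (2.13 to 3.39) for shKDM4D to shNFIB and 1.59 (0.68 to 2.51) for shNFIB to shMLL1 cells. In shControl cells at day 5 *Lpl* had about as many reads as *Pnpla2* (6372), but its RPKM was lower because its exon model spans 10478 bases against 3020.

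*Lmf1* (chromosome 17, from 25579085 to 25662826, protein coding) encodes lipase maturation factor, which folds lipoprotein lipase in the endoplasmic reticulum. Its RPKM was 1.32 and 1.48 at day 0 and day 5 in shControl cells, 1.94 and 1.48 in shKDM4D, 1.30 and 1.87 in shNFIB, and 1.20 and 1.97 in shMLL1 cells. No comparison of *Lmf1* was past 2-fold. The log2 change was 0.16 (-0.03 to 0.36) in shControl cells, which quantile normalization turned to -0.13. It was -0.39 (-0.58 to -0.20) in shKDM4D cells and 0.52 (0.31 to 0.74) in shNFIB cells, and division by *Gapdh* turned both, to 0.08 and -0.04. In shMLL1 cells it was 0.71 (0.56 to 0.86), or 0.10 after quantile normalization. The ratio of *Lmf1* to *Lpl* in RPKM at day 5 was 0.0447 for shControl, 1.49 for shKDM4D, 12.4 for shNFIB and 39.3 for shMLL1 cells. *Gpihbp1* (chromosome 15, from 75596628 to 75599481, protein coding), whose product carries lipoprotein lipase across the endothelium of capillaries, had 0 reads in all 8 libraries.

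*Lipa* (chromosome 19, from 34492318 to 34527474, protein coding) was the most abundant of the 10 transcripts per length in 7 of the 8 libraries, the exception being shControl cells at day 5, where *Pnpla2* (109) was just above it (103). Its RPKM at day 0 was 65.2 for shControl, 48.4 for shKDM4D, 41.6 for shNFIB and 23.6 for shMLL1 cells. At day 5 it was 103, 101, 141 and 72.1. All day 5 values lay above all day 0 values. The log2 change was 0.67 (0.61 to 0.72) in shControl cells, 1.06 (0.997 to 1.13) in shKDM4D, 1.76 (1.69 to 1.83) in shNFIB and 1.61 (1.55 to 1.67) in shMLL1 cells. It was past 2-fold in the knockdown lines only, and in shKDM4D cells the interval reached down to the limit. The change exceeded that of shControl cells by 0.39 (0.31 to 0.48), 1.09 (1.01 to 1.18) and 0.94 (0.86 to 1.03). At day 5 shKDM4D cells did not differ from shControl cells beyond counting error (-0.04, interval -0.09 to 0.01), shNFIB cells were at 0.45 (0.40 to 0.50) and shMLL1 cells at -0.52 (-0.57 to -0.47). At day 0 *Lipa* was below shControl cells in each knockdown line, by log2 ratios of -0.43 in shKDM4D, -0.65 in shNFIB and -1.47 (2.76-fold) in shMLL1 cells. The RPKM of *Lipa* was 8.70 times that of *Pnpla2* at day 0 and 0.948 of it at day 5 in shControl cells. At day 5 it was 9.88 times that of *Pnpla2* in shKDM4D, 27.1 times in shNFIB and 8.09 times in shMLL1 cells.

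**Figure D4:**
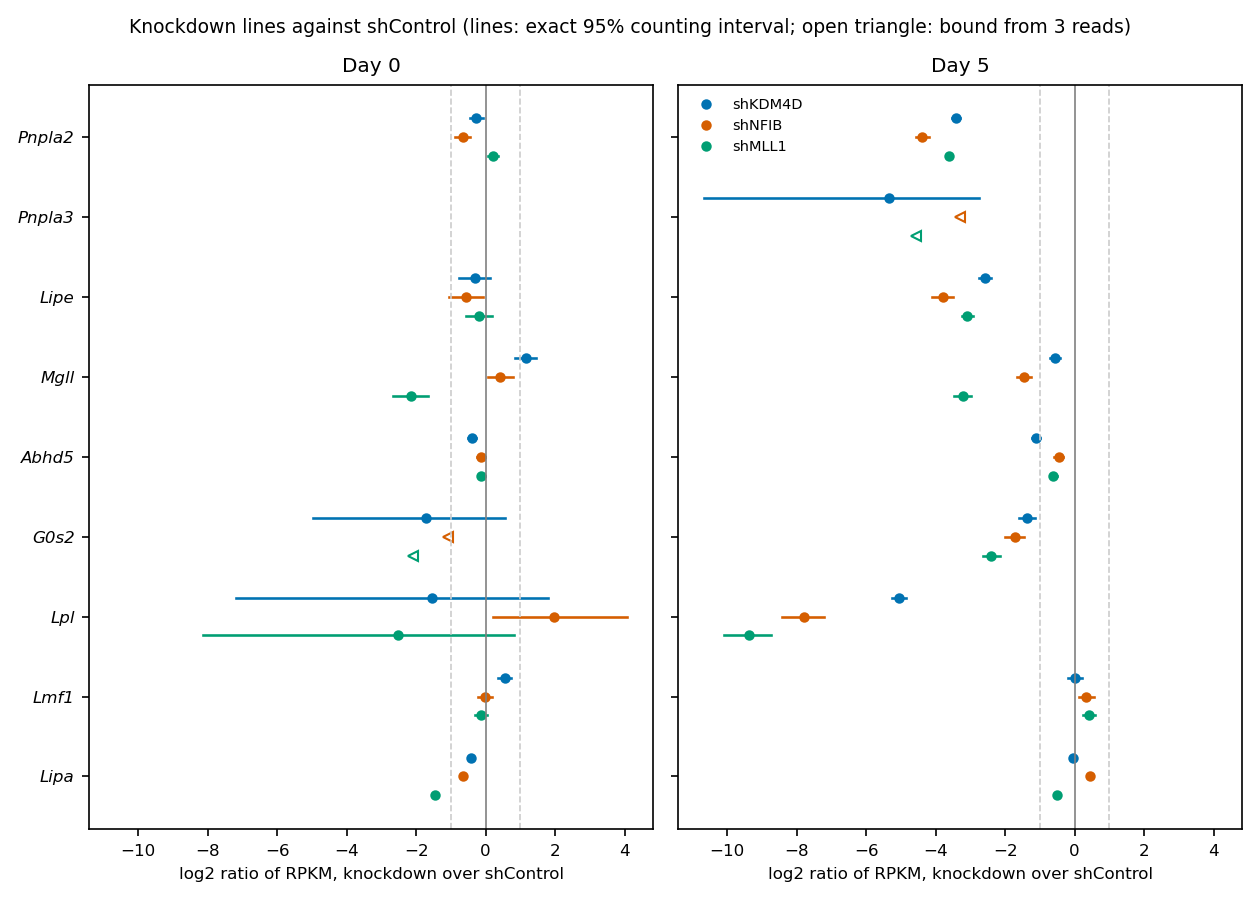
Log2 ratio of RPKM of each knockdown line to shControl cells at day 0 (left) and day 5 (right), with exact 95% counting intervals (lines), bounds from 3 reads (open triangles) and the 2-fold limits (dashed). At day 5 *Pnpla2*, *Pnpla3*, *Lipe*, *G0s2* and *Lpl* lie left of the limit in all 3 lines, and *Lmf1* and *Lipa* lie between the limits.

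In each knockdown line at day 5, 6 of the 9 genes were more than 2-fold below shControl cells, where 4.57% of all genes were lower in shKDM4D, 5.67% for shNFIB and 4.02% for shMLL1 cells. They were *Pnpla2*, *Pnpla3*, *Lipe*, *G0s2* and *Lpl* in each line, with *Abhd5* in shKDM4D cells and *Mgll* in the other 2 lines. None of the 9 was higher, against 1.88%, 5.54% and 5.25% of all genes in shKDM4D, shNFIB and shMLL1 cells. The median log2 ratio of the 9 genes (RPKM + 0.1) was -1.36, -1.71 and -3.02, beside 0.01, 0.09 and 0.07 over all genes. *Pnpla3* and *Lpl* passed the filter only through shControl cells at day 5, which made a lower value likely, and without them 4 of 7 genes were lower in each line. The medians include both genes and were not redone without them. The 3 comparisons share the shControl library.

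At day 0 fewer of the genes differed. In shKDM4D cells *Mgll* was higher (1 of 9, against 1.98% of all genes) and *G0s2* and *Lpl* were lower (2 of 9, against 4.26%). Both of the latter rest on 1 to 9 reads, and their intervals include 0. In shNFIB cells *Lpl* was higher on 11 reads against 4 (1 of 9, against 2.95%), and *G0s2* was lower, at 0 reads (1 of 9, against 6.05%). In shMLL1 cells none was higher (against 1.67%) and *Mgll*, *G0s2*, *Lpl* and *Lipa* were lower (4 of 9, against 7.43%), with *Lpl* at 1 read against 4. With 3 reads in place of 0, *G0s2* was 2.10-fold lower in shNFIB and 4.30-fold lower in shMLL1 than in shControl cells at day 0. The exact log2 intervals end at -0.47 and -1.50, so that of shNFIB cells does not exclude a difference below 2-fold.

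The wider pathways were described with 4 lists of genes. Among genes of lipolysis signalling and the droplet surface, 15 of 18 passed the filter, and 9 rose and none fell past 2-fold in shControl cells from day 0 to day 5 (median 1.13, against 0.03 for all genes, of which 13.0% rose and 8.56% fell). Of these, *Adrb3* passed the filter only through shControl cells at day 5 (named after its values were seen). Its rise there and its lower calls in each knockdown line at day 5 were largely fixed by the filter. *Plin1*, *Cidec* and *Fabp4*, which encode droplet coat, droplet fusion and fatty acid carrier proteins, were reduced in each knockdown line at day 5, with log2 ratios to shControl cells for *Plin1* of -4.23 for shKDM4D, -9.74 for shNFIB and -7.59 for shMLL1 cells. Of these 15 genes, 5 were lower at day 5 for shKDM4D, 8 for shNFIB and 5 for shMLL1 cells, against 4.57%, 5.67% and 4.02% of all genes, and none was higher, against 1.88%, 5.54% and 5.25%. The droplet coat gene *Plin2*, in contrast, had RPKM values of 62.2 for shControl, 46.4 for shKDM4D, 35.6 for shNFIB and 63.5 for shMLL1 cells at day 5. *Plin4*, of the same family, rose past 2-fold in all 4 lines. Its log2 changes were 1.99 for shControl, 1.91 for shKDM4D, 1.48 for shNFIB and 2.40 for shMLL1 cells. Even so, *Plin4* ended over 2-fold below shControl cells in shNFIB (log2 ratio -1.64) and shMLL1 cells (-1.16), though not in shKDM4D cells (-0.27). Before differentiation its log2 ratios to shControl cells were already -1.13 for shNFIB and -1.57 for shMLL1, against -0.20 for shKDM4D cells. *Pde3b*, which lowers cAMP and so restrains lipolysis, had log2 ratios to shControl cells of 0.31 for shKDM4D, -2.41 for shNFIB and 0.47 for shMLL1 cells at day 5. At day 0 these ratios were 0.97, -1.31 and 1.18. *Cav1*, a caveolar coat gene, rose in shControl cells (log2 change 1.69), whereas its changes of 0.18, 0.82 and -0.04 in shKDM4D, shNFIB and shMLL1 cells were not past the limit. Its log2 ratios to shControl cells in these lines were 0.68, -0.13 and 1.30 at day 0. At day 5 they were -0.84, -1.01 and -0.43.

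Of the lipoprotein lipase system 10 of 17 genes passed the filter, 4 rose in shControl cells and none fell (median 0.47), beside the same shares of all genes. *Apoe*, which encodes a lipoprotein component, reached an RPKM of 31.7 in shControl and 31.6 in shKDM4D cells, but 8.18 for shNFIB and 8.88 for shMLL1 cells. At day 5, 3 of the 10 genes were lower in shKDM4D, 4 for shNFIB and 3 for shMLL1 cells, and 0, 1 and 1 were higher, where 4.57%, 5.67% and 4.02% of all genes were lower and 1.88%, 5.54% and 5.25% higher. *Cd36*, counted as raised in shControl cells and as lower in each knockdown line, passed the filter only through shControl cells at day 5 (named after its values were seen). Its calls were largely fixed by the filter. Of 12 other neutral lipid hydrolases tested out of 15 listed, 2 rose and 1 fell in shControl cells (median 0.33), which is near the 13.0% and 8.56% of all genes. In these, 0, 2 and 1 genes were lower than in shControl cells at day 5 in shKDM4D, shNFIB and shMLL1 cells, and 2, 0 and 0 were higher, beside those shares of all genes at day 5. *Ces1f*, counted as higher in shKDM4D cells, passed the filter only through that library, which made a higher value likely (named after its values were seen). All 12 genes of lysosomal lipid handling were tested. In shControl cells 1 rose (median 0.17) and none fell, which is near the 13.0% and 8.56% of all genes. None differed past 2-fold at day 5 in any knockdown line. Of all genes, 4.57%, 5.67% and 4.02% were lower and 1.88%, 5.54% and 5.25% higher in shKDM4D, shNFIB and shMLL1 cells, shares at which few calls fall among 12 genes. The gene that rose, *Npc2*, a cholesterol carrier of lysosomes, had RPKM values between 71.6 and 93.5 at day 5 in the 4 lines. In shMLL1 cells 3 of the 12 rose from day 0 to day 5, near the 20.4% of all genes that did, with a median of 0.78 against 0.17.

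Genes with the most similar pattern were sought by the Pearson correlation of log2(RPKM + 0.1) over the 8 libraries, among 5456 genes with an RPKM of at least 10 in at least 1 library. For *Pnpla2* they were *Retn* (r = 0.977), *Gnpat* (0.976) and *Scd1* (0.973), and for *Lpl* they were *Cidec* (0.987), *Gpd1* (0.983) and *Plin1* (0.982). For *Lipa* they were *Serpine2* (0.983), *Pltp* (0.979) and *Selenok* (0.976). These values describe 8 libraries, in which the shControl library at day 5 carries most of the range of *Pnpla2* and *Lpl*.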

How the data were processed

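RNA was sequenced with a stranded kit in 8 libraries, 1 per line and day. The authors used CLC Genomics Workbench 11.0.1 for mapping to GRCm38 and deposited 1 RPKM value per gene symbol, which is normalized to exon length and mapped reads. Their methods also name quantile normalization, tried here as an alternative. Reads were recovered as RPKM multiplied by the exon length (GENCODE M21) over the value of 1 read. Between 96.2% and 96.5% of values lay within 0.02 of a whole number of reads. The lengths of *Lmf1* (13471 bases) and *Lipa* (2969) were fitted to whole reads, as the annotated ones (13589 and 6780) gave none. RPKM values are unaffected. Intervals are exact (Clopper-Pearson, conditional on the summed reads) and those of differences of changes use the delta method. They cover counting error only, since there is 1 library per condition. Duplicate reads cannot be told apart, and any that remain would make the intervals too narrow. Genes that exceeded an RPKM of 1 in any library were tested for a 2-fold difference without pseudocount, and a gene at 0 in 1 library counts as past it. Bounds use 3 reads in place of 0 and leave out the counting error of the other count. All 10 genes were named by rule, other genes where shControl cells at day 5 had an RPKM of 10 or more and a 2-fold change. The genes and lists were chosen with earlier results of these data known. The scripts were tested on simulated data (Python 3.11.15, scipy 1.17.1). Protein sequences were not analysed here.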

Additional observations from a re-analysis of the deposited data

Results flagged for a closer look

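*Abhd5* changed in opposite directions between lines with all intervals outside 0, at 0.51 in shControl and 0.18 in shNFIB cells against -0.21 in shKDM4D cells (log2, day 5 over day 0). The change in shKDM4D cells differed from that in shControl cells by -0.72 (-0.90 to -0.55), an interval of counting error only. The difference was not tested over replicates, as there is 1 library per condition. *Lmf1* likewise was at 0.52 in shNFIB and 0.71 in shMLL1 cells against -0.39 in shKDM4D cells, and shKDM4D cells differed from shControl cells by -0.55 (-0.82 to -0.28). This difference was not tested over replicates either, and quantile normalization took the shMLL1 value to 0.10. Division by *Gapdh*, whose RPKM in shKDM4D cells was 326 at day 0 and 236 at day 5, changed the sign in shKDM4D and shNFIB cells for both genes.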

How the results depend on the processing

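Adding 1 to every RPKM reduced the genes higher at day 5 than at day 0 from 5 to 2 in shNFIB and in shMLL1 cells, the genes higher in shKDM4D cells at day 0 from 1 to 0 and those lower from 2 to 0, those higher and lower in shNFIB cells at day 0 from 1 to 0 each, and those lower in shMLL1 cells at day 0 from 4 to 1. Adding 0.1 left 1 gene lower in shKDM4D and 0 higher in shNFIB cells at day 0. Quantile normalization left 2 genes higher at day 5 in shNFIB cells and 1 lower in shKDM4D cells at day 0. Division by *Gapdh* left 2 genes higher at day 5 in shNFIB cells, gave 0 higher in shKDM4D and 2 in shNFIB cells at day 0, and moved the median of all genes by 0.47 in shKDM4D and -0.56 in shNFIB cells from day 0 to day 5. With the counting interval required to exclude 0, 0 genes were lower in shKDM4D cells at day 0. Median-of-ratios scaling moved the median of all genes by -0.21 in shMLL1 cells from day 0 to day 5, and quantile normalization by -0.22. With the length of the principal transcript, 29 of 48 ratios within a library moved outside their counting intervals, as did 33 with 1 added to every RPKM. With this length the shControl ratios to *Pnpla2* at day 5 were 0.261 for *G0s2* and 0.199 for *Abhd5*. A change of length multiplies the ratio of a pair of genes by the same factor in every library. The order of the libraries therefore could not change. The ratio of *Abhd5* became 0.984 in shKDM4D cells at day 5. In shMLL1 cells it passed 1 on both days, at 1.60 and 1.59. The principal transcript length was an alternative chosen after seeing the data. So was leaving out *Pnpla3* and *Lpl*, which left 1 gene lower in shKDM4D and 0 higher in shNFIB cells at day 0. The counts at day 5 against shControl cells stayed within 1.5 times under all alternatives. The cause of these shifts was not tested. Each comparison set 1 library against 1 library, which left no pairs to test within it. A day effect common to the 4 lines, with the line as a block, was not run. Depth limits *Pnpla3*, *Gpihbp1*, and *G0s2* and *Lpl* at day 0.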
